A study of Mus musculus with 8 samples.

Results

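Apoptosis regulators and p53 target genes were examined in purified male germ cells with and without HR6B. The set lists 39 genes, namely the p53 family and its regulators, p53 target genes, the BCL2 family, caspases with the mitochondrial factors that act on them, inhibitors of apoptosis, and death receptors with their ligand and adaptors. Each gene was followed by 1 probe set, a group of short probes on the array that reports 1 transcript, taken as the one annotated to that gene alone with the highest mean log2 value over 8 arrays. In this way 37 of the 39 genes were measured, out of 18193 genes with a probe set of their own. Trp53 and Bax had no probe set named in the annotation used and were not analysed here. Of the 37, 28 had more than 1 probe set, and 100 probe sets covered them in all.

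The cells were late spermatocytes, which are close to the end of meiotic prophase, and round spermatids, the haploid cells that follow the meiotic divisions. They came from testes of male Hr6b+/+ (wild type) and Hr6b-/- (knockout) mice on the FVB background, aged 4 to 5 weeks, and no group received any agent. Knockout males were born to Hr6b-/- mothers and wild type males to Hr6b+/+ parents, so the 2 genotypes were not littermates, although the crosses were run at the same time and in the same backcross generation. Cells were separated by sedimentation at unit gravity and on Percoll, to a purity stated as more than 80%. Each of the 4 groups had 2 arrays. The number of mice behind an array is not given in the sources used here, so the p-values describe the spread between these arrays alone, which may be technical. In such bulk samples, fewer cells of a type and less RNA per cell cannot be told apart.

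The protein p53 is a transcription factor that is activated by DNA damage and other stress. It is held down by MDM2, a ubiquitin ligase, and by MDM4, and it switches on genes of cell cycle arrest, such as Cdkn1a, and of cell death, such as Bbc3 and Pmaip1. Cell death through mitochondria is set by the BCL2 family. BCL2, BCL-XL (Bcl2l1), BCL-W (Bcl2l2) and MCL1 keep the outer membrane closed, the effectors BAX, BAK and BOK open it, and BH3-only proteins sense stress and push towards opening. Cytochrome c then joins APAF1 and caspase 9 in the apoptosome, which is opposed by inhibitors of apoptosis such as XIAP, and these in turn are displaced by DIABLO and HTRA2. A second route starts at the cell surface, where FAS and TNFRSF10B (a TRAIL receptor) recruit FADD and caspase 8, a step that CFLAR blocks. In the testis, apoptosis is a normal part of spermatogenesis and removes germ cells that fail in meiosis.

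Values are RMA values on the log2 scale, given below as signal on the linear scale, and a gene counts as called below an adjusted p of 0.05 in limma with Benjamini-Hochberg adjustment over 45037 probe sets. The signal of different probe sets is not comparable, so genes are compared with themselves across groups. Ube2b, which encodes HR6B, had a mean signal of 3102 in wild type and 828 in knockout spermatocytes by its probe set with the highest mean. In spermatids this probe set had 4606 and 1006. Another Ube2b probe set had 2159 and 419 in spermatocytes, and 1058 and 120 in spermatids. Dimmer Ube2b probe sets were called lower in knockout spermatids and not called in spermatocytes. Of 10 markers of round and later spermatids, 8 rose in knockout spermatocytes and none fell. Their summed signal was 8879 and 5551 on the wild type spermatocyte arrays, 33597 and 24094 on the knockout spermatocyte arrays, and 149103 to 189982 on the 4 spermatid arrays. Of 10 spermatocyte markers, none was called between genotypes in spermatocytes. Of 10 Sertoli cell markers, Cldn11 and Inha rose in knockout spermatids. The summed signal of the list was 696 and 794 on the wild type and 1053 and 998 on the knockout spermatid arrays. On the spermatocyte arrays it was 4217 and 5575 in wild type and 4424 and 5673 in knockout. In wild type 6 of the 10 were lower in spermatids than in spermatocytes and 0 higher, and in knockout 6 were lower and 2 higher. The part of Sertoli cell RNA in the stage differences below was not tested. Of 7 leukocyte markers, 1 rose in knockout spermatids (Adgre1), with sums of 599 and 585 against 758 and 699. Of 7 spermatogonial markers, Uchl1 and Sohlh1 rose there (log2 1.41 and 1.08), with sums of 371 and 415 against 557 and 534, and of 3 endothelial markers Cdh5 rose, with sums of 207 and 190 in wild type against 176 and 166 in knockout. The spermatocyte marker Mlh3 fell in knockout spermatids (log2 -0.67), and the spermatid marker Tssk6 rose (log2 1.34). The log2 difference between 3′ and 5′ control probe sets is a measure of RNA integrity. For β-actin it was 0.84 and 0.95 on the wild type and 0.66 and 0.70 on the knockout spermatid arrays. On spermatocyte arrays it was 1.24 to 1.75. For GAPDH it was 0.82 and 1.03 on the wild type and 0.90 and 0.93 on the knockout spermatid arrays. On spermatocyte arrays the GAPDH difference was 0.16 to 0.80, so the 2 controls went opposite ways between the cell types.

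A signal of 100, taken as the limit between dim and clear probe sets, was reached as a group mean by 18 of the 37 genes in wild type spermatocytes, 17 in knockout spermatocytes, 17 in wild type spermatids and 15 in knockout spermatids. In at least 1 group it was reached by 20. These were Mdm2, Mdm4, Cdkn1a, Sesn2, Bcl2l1, Mcl1, Bak1, Bok, Pmaip1, Bid, Bad, Casp2, Casp6, Casp9, Diablo, Htra2, Birc2, Birc6, Tnfrsf10b and Fadd. The other 17 stayed under 100 in all groups, and changes reported for them below rest on dim probe sets. By class, the level was reached by 5 of the 7 caspases and mitochondrial factors, both effectors measured, 2 of 5 death receptor genes and 2 of 5 p53 targets. These counts rest on different probe sets and do not rank the classes by expression. Over all probe sets, 33.2% to 35.4% reached 100 on an array. The genes here were each taken by their brightest probe set, and the share of all genes by that rule was not counted.

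Promoter sequence was available for 31 of the 37 genes (43 windows of 250 bases ending at the transcript start, RefSeq, GRCm38.p6), and not for Tnfrsf10b, Pmaip1, Trp63, Bik, Htra2 and Perp. The windows of 4 genes called between genotypes in spermatids are shown because Cdkn1a and Casp9 rose there and Birc2 and Birc6 fell. They were chosen after the values were seen, and the windows of Bad and Casp2, which also fell in spermatids, are not shown. All read 5′ to 3′ on the gene's own strand, and capitals mark matches on either strand to the core or the full cAMP response element (TGACG and TGACGTCA, the first lying within the second), the CCAAT box, the GC box (GGGCGG) or the p53 decamer, the repeated element of p53 binding sites. Cdkn1a is shown by the window of its upstream start, at chr17:29090729-29090978 on the plus strand, which holds 2 p53 decamers. Its other window, not shown, holds 2 GC boxes and no p53 decamer. Casp9 lies at chr4:141793362-141793611 on the plus strand, with 4 GC boxes. The upstream window of Birc2, at chr9:7837058-7837307 on the minus strand, holds a full cAMP response element. Its other window, not shown, holds 2 GC boxes and the core but not the full cAMP response element. Birc6 lies at chr17:74528045-74528294 on the plus strand, with 2 GC boxes.
Cdkn1a: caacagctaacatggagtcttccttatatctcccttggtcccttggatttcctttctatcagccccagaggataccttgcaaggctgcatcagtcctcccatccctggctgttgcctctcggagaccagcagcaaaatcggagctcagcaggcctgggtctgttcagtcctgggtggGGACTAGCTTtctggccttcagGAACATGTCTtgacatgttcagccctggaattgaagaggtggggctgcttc
Casp9: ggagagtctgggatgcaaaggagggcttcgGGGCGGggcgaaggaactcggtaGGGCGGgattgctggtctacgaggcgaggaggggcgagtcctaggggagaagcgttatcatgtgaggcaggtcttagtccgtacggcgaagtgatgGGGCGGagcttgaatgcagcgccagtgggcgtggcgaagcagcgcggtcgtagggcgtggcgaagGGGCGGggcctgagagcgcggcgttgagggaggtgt
Birc2: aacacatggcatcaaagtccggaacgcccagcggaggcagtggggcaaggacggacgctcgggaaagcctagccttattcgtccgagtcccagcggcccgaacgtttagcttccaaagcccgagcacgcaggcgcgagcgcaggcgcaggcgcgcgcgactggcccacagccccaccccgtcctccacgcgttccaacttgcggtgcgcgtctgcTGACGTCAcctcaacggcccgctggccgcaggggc
Birc6: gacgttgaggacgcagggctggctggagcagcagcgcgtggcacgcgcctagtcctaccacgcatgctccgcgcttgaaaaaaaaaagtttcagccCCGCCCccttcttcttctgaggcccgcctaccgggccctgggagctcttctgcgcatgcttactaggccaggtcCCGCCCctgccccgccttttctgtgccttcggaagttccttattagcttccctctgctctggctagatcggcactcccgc
Over the 43 windows of the set, the GC box was found in 65.1%, against 32.7% of all 32851 windows, the CCAAT box in 27.9% against 33.8%, the cAMP response element core in 16.3% against 17.8%, its full form in 2.33% against 1.55%, and the p53 decamer in 11.6% against 7.13%. Of the genes in the set, Cdkn1a, Ccng1, Gadd45a, Mdm2 and Fasl had a window with a p53 decamer. A match describes the letters of the window and is not evidence that a factor binds there.

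The first comparison asked which of these genes changed in spermatocytes that lack HR6B. Of the 37, 2 rose and none fell, where 2.22% of all genes rose and 0.511% fell. This is 5.41% of the set, against 2.73% of all genes called in either direction. The median log2 fold change was -0.08 over the set and -0.00 over all genes. The 2 genes that rose were Pmaip1 and Fadd.

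Pmaip1 encodes NOXA, a BH3-only protein and p53 target that neutralises MCL1. Its signal was 199 and 217 on the wild type spermatocyte arrays and 423 and 452 on the knockout ones. All values of the knockout lay far above those of the wild type. The rise was 2.11-fold (log2 1.08, standard error 0.12, adjusted p = 0.00254 from limma). It rose in knockout spermatids too, although from a low level. There the signal was 20.5 and 21.3 in wild type and 33.6 and 30.3 in knockout, without overlap, and the log2 difference was 0.61 (standard error 0.12, adjusted p = 0.0076 from limma). The interaction test of the 2 effects did not pass the threshold (adjusted p = 0.133 from limma). Pmaip1 was 9.93-fold lower in wild type spermatids than in wild type spermatocytes. Whether the higher spermatid marker signal on the knockout spermatocyte arrays had a part in its change was not tested.

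Fadd encodes the adaptor that couples death receptors to caspase 8. Its signal was 180 and 161 in wild type and 350 and 279 in knockout spermatocytes, again without overlap. The rise was 1.84-fold (log2 0.88, standard error 0.17, adjusted p = 0.0375 from limma), and it lost its call when any of the 4 spermatocyte arrays or either knockout spermatid array was left out, with adjusted p-values up to 0.358 over all alternatives. A second, dimmer Fadd probe set had a mean signal of 36.4 in both genotypes (adjusted p = 0.996 from limma). In wild type spermatids Fadd had 169 and 121, which overlaps the wild type spermatocyte values, and its stage difference was not called (adjusted p = 0.245 from limma). Its second probe set was called lower in wild type spermatids than in wild type spermatocytes. With the mean of the Fadd probe sets the wild type difference was -0.49 on the log2 scale (adjusted p = 0.00861 from limma). In knockout cells Fadd was 1.58-fold lower in spermatids than in spermatocytes (adjusted p = 0.00736 from limma), as was its second probe set, and the call was lost with cyclic loess, with equal medians and without knockout spermatocyte replicate 1.

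**Figure D1:**
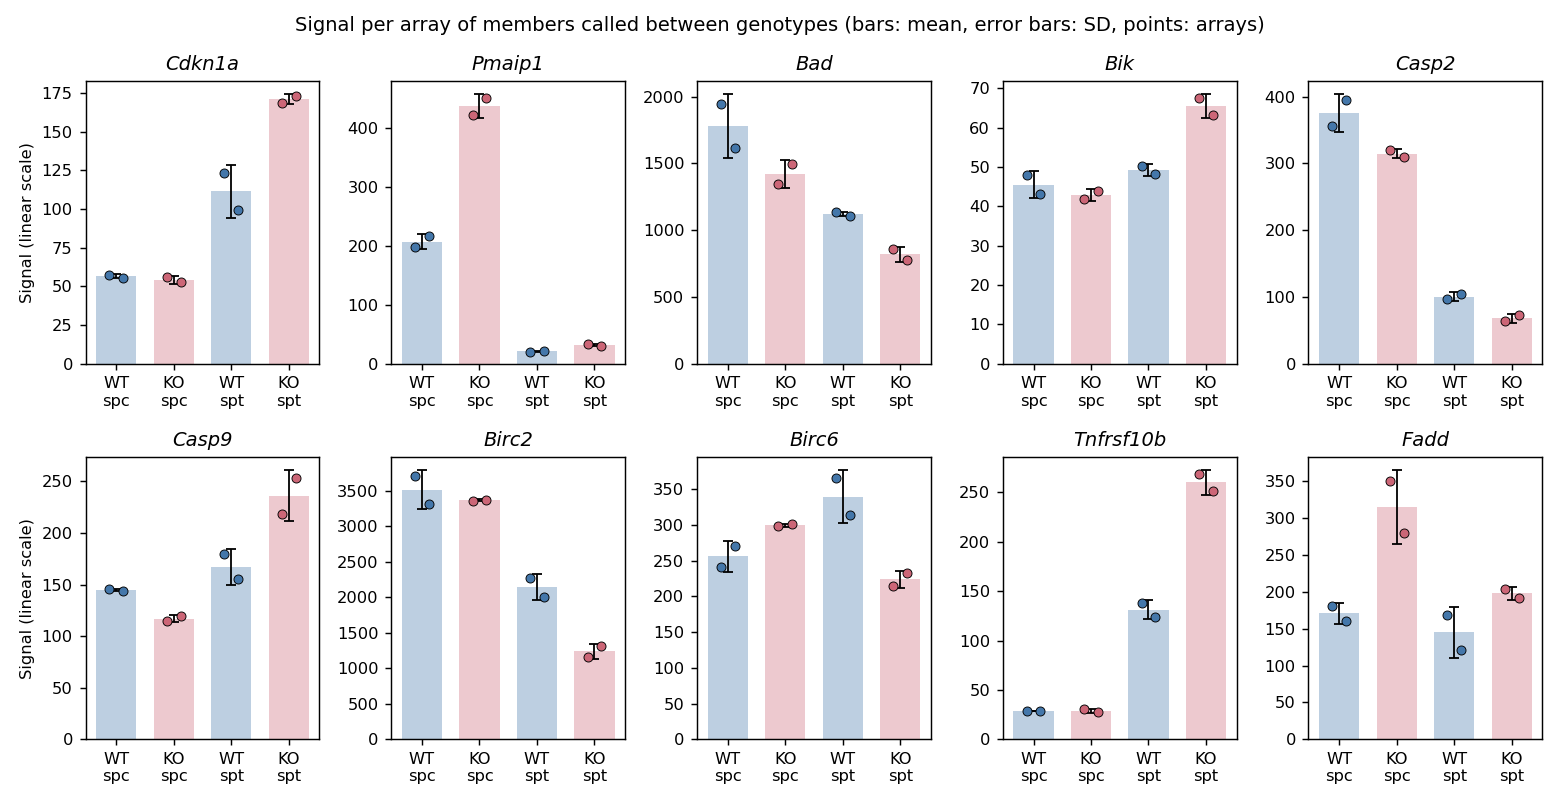
Signal per array on the linear scale for the 10 genes called between genotypes in at least 1 cell type, with points for arrays, bars for the mean and error bars for the SD (n = 2 arrays per group). WT is wild type, KO knockout, spc spermatocytes and spt spermatids. Pmaip1 is the one gene in which knockout points lie above wild type points and the difference is called in both cell types, and Tnfrsf10b stands near 29 on average in spermatocytes of either genotype but at 131 and 260 in spermatids.

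The other 35 genes were not called in spermatocytes, 7 of them with an unadjusted p under 0.05. For 34 of the 35, the 95% interval of the difference by the probe set followed lay within 2-fold in either direction. The median reach was 0.30 to each side on the log2 scale. The data thus bound these differences without showing that they are zero. The one exception was Perp, a p53 target that encodes a membrane protein of desmosomes. Its signal was 36.9 and 69.6 in wild type and 24 and 32.5 in knockout spermatocytes, and the wide spread came from the wild type pair. The log2 difference was -0.86 (adjusted p = 0.174 from limma), and it was -1.32 (adjusted p = 0.00483 from limma) without wild type spermatocyte replicate 1. Apaf1, the scaffold of the apoptosome, had 39.4 and 44.5 in wild type and 32.2 and 26 in knockout, a log2 fold change of -0.53 (adjusted p = 0.101 from limma), the lowest p among genes not called. Trp73, a p53 relative, had 67.9 and 58.8 against 44.9 and 47.6 (log2 -0.45, adjusted p = 0.122 from limma). For both genes the groups did not overlap, and the differences missed the threshold. With 2 arrays per group, a lack of overlap is common without any difference. Here and elsewhere it describes the values and adds no support to a call. The share of all genes without overlap was not counted. A second probe set of Ccng1, dimmer than the one followed, fell from a mean of 41.7 to 23.9 (log2 -0.79, adjusted p = 0.0276 from limma).

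In spermatids, more of the set differed. Of the 37 genes, 5 rose and 4 fell, 24.3% of the set, where 6.93% of all genes rose, 12.9% fell and 19.8% were called in either direction. The share of the set called was thus near the background. The median log2 fold change was 0.04 over the set and 0.01 over all genes. With arrays scaled to equal medians of expressed probe sets, which raised every knockout effect in spermatids by 0.18 on the log2 scale, 8 genes rose and 3 fell, and with cyclic loess 5 rose and 2 fell. The genes that rose were Tnfrsf10b, Cdkn1a, Pmaip1, Casp9 and Bik, and those that fell were Birc2, Birc6, Casp2 and Bad.

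Tnfrsf10b, the mouse TRAIL receptor that starts the surface route, changed most. Its signal was 138 and 124 in wild type and 269 and 251 in knockout spermatids, so that the lower knockout array was well above the higher wild type array. The rise was 1.98-fold (log2 0.99, standard error 0.12, adjusted p = 0.000936 from limma) and kept its call under all 16 alternatives. In spermatocytes it had 28.9 and 29 in wild type and 30.4 and 27.3 in knockout, with no separation. Its dimmer second probe set went from a mean of 41.7 to 53 in spermatids, a log2 fold change of 0.35 that was not called (adjusted p = 0.0874 from limma). The main probe set is of a class (suffix _s_at) whose probes can match transcripts of more than 1 gene.

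Cdkn1a, which encodes the cell cycle inhibitor p21 and is a standard readout of p53 activity, had a signal of 124 and 99.4 in wild type and 169 and 173 in knockout spermatids, again without overlap. It rose 1.54-fold (log2 0.63, standard error 0.13, adjusted p = 0.0108 from limma). A second probe set had means of 69.1 and 88.1 (log2 0.35, adjusted p = 0.0738 from limma). The other p53 targets outside the BCL2 family and receptors were not called. Gadd45a, a stress gene of DNA repair and cell cycle arrest, had 10.3 and 11.2 in wild type and 13.2 and 15.9 in knockout spermatids (log2 0.43, adjusted p = 0.0792 from limma). Ccng1, cyclin G1, had mean signals of 32.6 and 35.2, Sesn2, a sestrin of the oxidative stress response, 214 and 209, and Perp 18.3 and 15.8, with adjusted p-values of 0.715, 0.896 and 0.651 from limma.

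Among the BH3-only genes, Pmaip1 and Bik rose and Bad fell. Bik had a signal of 50.3 and 48.2 in wild type and 67.5 and 63.2 in knockout spermatids, a 1.33-fold rise (log2 0.41, standard error 0.11, adjusted p = 0.0401 from limma). Its probe set is dim and of a class (suffix _x_at) with probes that can match unrelated transcripts, and the call held under 4 of 15 alternatives. Bad, whose product binds BCL2 and BCL-XL when survival signals are lost, had 1133 and 1110 in wild type and 857 and 780 in knockout. It fell 1.37-fold (log2 -0.46, standard error 0.13, adjusted p = 0.043 from limma), and a second Bad probe set fell too, from a mean of 884 to 566 (log2 -0.65, adjusted p = 0.00428 from limma). The call of the first held under 7 of 16 alternatives. Bcl2l11, which encodes BIM, went from 51.5 and 47.1 to 65.5 and 63.1 (log2 0.38, adjusted p = 0.0603 from limma), without overlap but short of the threshold. Bid, the link from caspase 8 to mitochondria, had means of 27.5 and 23.2 (adjusted p = 0.287), and Bbc3, which encodes PUMA, 85.3 and 98.9 (adjusted p = 0.434 from limma).

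Of the caspases, 1 rose and 1 fell. Casp9, the initiator caspase of the apoptosome, had a signal of 180 and 155 in wild type and 219 and 254 in knockout spermatids, without overlap, a 1.41-fold rise (log2 0.50, standard error 0.13, adjusted p = 0.0271 from limma). The other Casp9 probe sets, with spermatid means of 34.2 against 36.7 and of 75.4 against 95.3, were not called. Casp2, a caspase activated on the PIDD platform, had 96.2 and 105 in wild type and 63.3 and 72.7 in knockout, a 1.48-fold fall (log2 -0.57, standard error 0.12, adjusted p = 0.0134 from limma). The executioner gene Casp6 had 130 and 107 against 97.3 and 84.5 (log2 -0.38, adjusted p = 0.141 from limma). The partners Diablo and Htra2 each had a log2 fold change of -0.26 (adjusted p = 0.157 and 0.163 from limma), and Apaf1 had one of 0.18 (adjusted p = 0.438). Casp8, the initiator of the surface route, had 20.7 and 18.5 against 21.3 and 18.9, with overlap, and 15.8 to 18.9 over the 4 spermatocyte arrays.

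The genes that fell most were both inhibitors of apoptosis. Birc2, which encodes the ubiquitin ligase cIAP1, had a signal of 2271 and 2013 in wild type and 1163 and 1319 in knockout spermatids, with the 2 genotypes well apart. It fell 1.73-fold (log2 -0.79, standard error 0.12, adjusted p = 0.00318 from limma) and kept its call under all 16 alternatives. Birc6, which encodes the ubiquitin-conjugating inhibitor BRUCE, had 366 and 313 in wild type and 215 and 232 in knockout, also without overlap, a 1.51-fold fall (log2 -0.60, standard error 0.12, adjusted p = 0.0114 from limma). The call was lost with cyclic loess, with the mean of its probe sets, and without wild type or knockout spermatid replicate 1 (log2 -0.71 to -0.22 over the alternatives). Of 6 Birc6 probe sets 1 other was called, which fell from a mean of 14.5 to 10.3 (log2 -0.49, adjusted p = 0.0178 from limma), and the remaining 4 had log2 fold changes of -0.31 to 0.15. The other inhibitors were dim and not called. Birc3, which encodes cIAP2, had 34.7 and 41.7 against 43.8 and 33.7, and X-linked Xiap had 15.4 and 17.9 against 19 and 17, so that the genotypes overlapped for both. All 7 Xiap probe sets stayed under a signal of 100 in every group.

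Neither the pro-survival BCL2 genes nor the effectors were called between genotypes in either cell type. In spermatids, Bcl2 had 44.7 and 38.4 in wild type and 52.4 and 48.1 in knockout (log2 0.28, 95% interval -0.11 to 0.66). Bcl2l1 had 1143 and 1194 against 1116 and 947 (log2 -0.18, interval -0.55 to 0.19), and Bcl2l2 had 33.7 and 35.9 against 34.5 and 31.6 (log2 -0.08, interval -0.40 to 0.25). Mcl1 had 811 and 724 against 623 and 749 (log2 -0.17, interval -0.47 to 0.14). The genotypes overlapped for Bcl2l2 and Mcl1 and lay apart for Bcl2 and Bcl2l1. Bak1 had means of 51.9 and 60.8 and Bok of 122 and 139 in wild type and knockout spermatids, with adjusted p-values of 0.387 and 0.462 from limma.

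The p53 regulators and relatives were not called between genotypes either. Mdm2, itself a p53 target, had a signal of 4269 and 4524 in wild type and 4007 and 4032 in knockout spermatids (log2 -0.13, 95% interval -0.44 to 0.18), and 1643 and 2118 against 2373 and 2109 in spermatocytes (log2 0.26, interval -0.05 to 0.57). Mdm4 had a log2 fold change of 0.07 in spermatocytes and -0.21 in spermatids. Trp63, whose product guards the genome of oocytes, had 69.4 and 64.8 in wild type and 74.1 and 72.3 in knockout spermatids, and Trp73 had 53.8 and 57.7 against 63.9 and 62.4. Of the surface receptor genes other than Tnfrsf10b, Fas had 15.7 and 14.8 against 13.8 and 16.6 (log2 -0.01, interval -0.30 to 0.28), and Cflar, which encodes the caspase 8 blocker c-FLIP, 21.3 and 21.9 against 27.8 and 22.6. Fasl, the ligand of FAS, had 95.2 and 59.6 against 55.9 and 67.6 by its main probe set (adjusted p = 0.378 from limma). Its second probe set fell from a mean of 93.3 to 37.6 (log2 -1.31, adjusted p = 0.00032 from limma), so the 2 probe sets of Fasl gave different calls.

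All 28 genes not called in spermatids had a 95% interval within 2-fold in either direction, and 6 of them had an unadjusted p under 0.05. Sertoli cell, leukocyte and spermatogonial markers, given above, had higher sums on both knockout spermatid arrays than on both wild type ones. The same held for 4 Leydig cell markers, with sums of 223 and 214 in wild type and 264 and 264 in knockout. Sums of 4 peritubular myoid markers overlapped, at 309 and 339 against 334 and 318. None of the Leydig or myoid markers was called between genotypes, and endothelial sums, given above, were lower in knockout. The difference in β-actin control probe sets was smaller on the knockout spermatid arrays, while that in GAPDH control probe sets lay between the wild type values. The part of these in the changes of the apoptosis genes was not tested. Of the 9 calls in spermatids, those of Birc2 and Tnfrsf10b alone held without knockout spermatid replicate 1. Bad and Bik lost their calls whichever spermatid array was left out. Casp9 and Cdkn1a also lost theirs without spermatid replicate 2 of either genotype. Birc6 and Pmaip1 also lost theirs without wild type spermatid replicate 1, and Casp2 without wild type spermatid replicate 2. Over the alternatives, the calls of Casp2 and Pmaip1 held in 14 of 16, that of Casp9 in 11 of 16 and that of Cdkn1a in 12 of 15.

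**Figure D2:**
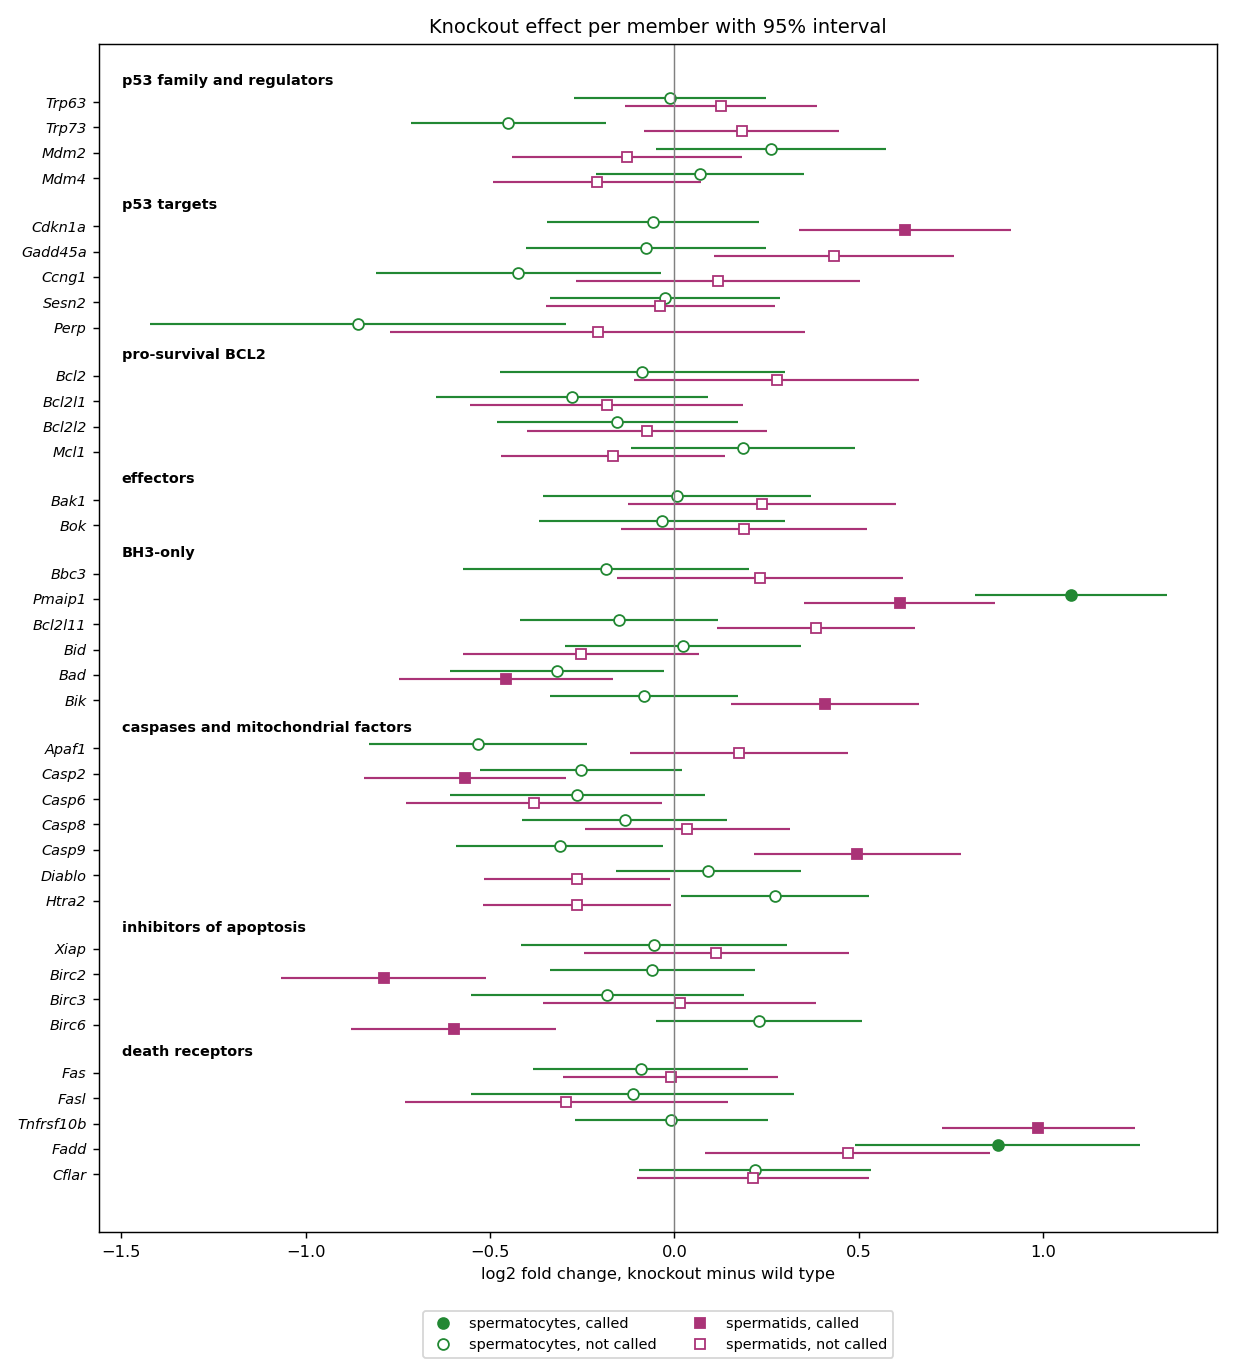
Log2 fold change, knockout minus wild type, of each of the 37 genes in spermatocytes (circles) and spermatids (squares), grouped by role, with 95% intervals from limma and filled symbols for genes called. In spermatocytes Pmaip1 and Fadd alone are called, and in spermatids Tnfrsf10b lies furthest to the right at 0.99 and Birc2 furthest to the left at -0.79.

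Whether the knockout effect differed between the cell types was tested by the interaction of genotype and cell type. The effect in spermatids was higher than that in spermatocytes for 2 genes and lower for 2, where the background was 2.11% and 4.61% of all genes, and 6.72% in either direction. Tnfrsf10b had an interaction of 1.00 (standard error 0.17, adjusted p = 0.0151 from limma) and Casp9 of 0.81 (standard error 0.18, adjusted p = 0.0365), the latter made of a log2 fold change of -0.31 in spermatocytes, where the signal was 145 and 144 in wild type and 114 and 119 in knockout, and of 0.50 in spermatids. Birc6 had an interaction of -0.83 (standard error 0.18, adjusted p = 0.0336) and Birc2 of -0.73 (standard error 0.18, adjusted p = 0.0477 from limma). Birc2 had 3712 and 3322 in wild type and 3357 and 3378 in knockout spermatocytes, which overlapped, and Birc6 had 241 and 271 against 298 and 301. The second probe sets of Fasl (-1.33, adjusted p = 0.0066) and Bad (-0.63, adjusted p = 0.0499 from limma) were called lower as well.

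None of these 4 calls was left without either knockout spermatocyte array, wild type spermatid replicate 2 or knockout spermatid replicate 1, and 1 was left without wild type spermatid replicate 1 or without knockout spermatid replicate 2. Without either wild type spermatocyte array 2 were left, and without replicate 1 of these Perp was called as well (1.11, adjusted p = 0.0334 from limma). The calls of Birc2 and Birc6 were lost under both other scalings, which left 2 genes higher and 0 lower with cyclic loess and 6 higher and 0 lower with equal medians. By the probe set followed, the 95% interval reached beyond 2-fold for 5 of the 33 genes not called, Trp73, Cdkn1a, Ccng1, Perp and Apaf1. For these a difference between the cell types could not be bounded at that size. Apaf1 had the lowest adjusted p among them (0.0608), with Trp73 at 0.0613 and Cdkn1a at 0.0621 from limma.

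More genes of the set were called between the cell types than between genotypes, as was so for all genes. In wild type, 7 of the 37 genes were higher in spermatids than in spermatocytes and 17 were lower, where 33.7% and 29.4% of all genes were called. In knockout cells, 11 were higher and 15 lower, where 41.6% and 31.1% of all genes were called. In total 64.9% of the set was called in wild type against 63.2% of all genes, and 70.3% in knockout against 72.7%. The median log2 fold change of the set was -0.23 in wild type and -0.19 in knockout, while that of all genes was 0.15 and 0.21. Scaling to equal medians added 0.32 and 0.53 to these differences on the log2 scale and gave 13 higher and 12 lower in wild type and 18 higher and 10 lower in knockout, and cyclic loess gave 8 and 16, and 10 and 14.

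By the probe sets followed, of the 6 BH3-only genes 4 were lower and 1 was higher in wild type spermatids. In knockout spermatids 3 were lower and 2 higher. The 4 include Bcl2l11, of whose 5 probe sets 3 were called higher and 1 lower in wild type. With their mean its wild type difference was 0.64 on the log2 scale. They also include Bad, whose stage call was lost with cyclic loess and with equal medians. Pmaip1 was 9.93-fold lower in wild type and 13.70-fold lower in knockout spermatids than in spermatocytes (log2 -3.31 and -3.78, adjusted p = 4.79e-09 and 3.81e-09 from limma), the largest stage difference of the set. Bid had 189 and 224 in wild type spermatocytes and 28 and 27 in wild type spermatids, a 7.49-fold difference (log2 -2.90, adjusted p = 4.32e-08 from limma), and in knockout cells it was 9.07-fold lower in spermatids. Bad was lower by 1.58-fold and 1.74-fold. Bbc3 went the other way, with 52.2 and 52.5 in wild type spermatocytes and 70 and 101 in wild type spermatids (1.60-fold higher, adjusted p = 0.0071 from limma), and it was 2.14-fold higher in knockout spermatids than in knockout spermatocytes. Bik was higher in knockout spermatids (1.52-fold, adjusted p = 0.000967 from limma) and not called in wild type.

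By the probe sets followed, 3 of the 4 pro-survival genes were lower in spermatids of both genotypes, and of the 2 effectors 1 was lower. Mcl1 had 2436 and 2819 in wild type spermatocytes and 811 and 724 in wild type spermatids, 3.42-fold lower (log2 -1.77, adjusted p = 1.18e-06 from limma), and 4.36-fold lower in knockout. Bcl2l2, which spermatogenesis needs in adult mice, had 66.4 and 88.6 against 33.7 and 35.9 in wild type, 2.21-fold lower (adjusted p = 6.49e-05 from limma), and was 2.09-fold lower in knockout. This rests on 1 of its 4 probe sets, and with their mean the difference was -0.15 in wild type and -0.079 in knockout (adjusted p = 0.24 and 0.502 from limma). Bcl2l1 was lower by 1.68-fold and 1.57-fold. The stage calls of Bcl2l1 and Bad were lost under both other scalings in either genotype. The wild type call of Bcl2l1 was also lost with the mean of its probe sets. Bcl2 was the exception, with a log2 difference of 0.23 that was not called in wild type and of 0.60 in knockout (adjusted p = 0.0121 from limma). Bak1 had 138 and 114 in wild type spermatocytes and 58.9 and 44.9 in wild type spermatids, 2.43-fold lower, and 2.07-fold lower in knockout. In knockout 1 of its 2 probe sets was called higher, and with their mean the difference was -0.094 (adjusted p = 0.601 from limma). Bok had 120 and 126 in wild type spermatocytes and 132 and 113 in wild type spermatids, with no separation in either genotype.

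Among caspases and mitochondrial factors, Casp2, Diablo and Htra2 were lower in spermatids of both genotypes. Casp2 had 356 and 395 in wild type spermatocytes, 3.73-fold above wild type spermatids (log2 -1.90, adjusted p = 3.12e-07 from limma), and the difference was 4.64-fold in knockout. Diablo had 11810 and 12211 in wild type spermatocytes and 4726 and 4672 in wild type spermatids, 2.56-fold lower (log2 -1.35, adjusted p = 2.24e-06 from limma). In knockout cells Diablo was 3.27-fold lower. Htra2 had 464 and 482 against 186 and 205 in wild type, 2.42-fold lower, and was 3.51-fold lower in knockout (log2 -1.27 and -1.81). Apaf1 was 1.51-fold lower in wild type spermatids (adjusted p = 0.00316 from limma) and had a log2 difference of 0.11 in knockout that was not called. Casp9 was called in the knockout, 2.02-fold higher in spermatids (adjusted p = 4.74e-05 from limma), and not in wild type, which is the interaction described above seen from the other side.

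The largest rises in wild type lay on the surface route. Tnfrsf10b was 4.53-fold higher in wild type spermatids than in wild type spermatocytes (log2 2.18, adjusted p = 8.22e-08 from limma) and 9.03-fold higher in knockout. Fasl had 22.2 and 23.1 in wild type spermatocytes and 95.2 and 59.6 in wild type spermatids, 3.32-fold higher (log2 1.73, adjusted p = 2.55e-05 from limma), and 2.93-fold higher in knockout. Its receptor Fas had 12.9 and 11.9 in wild type spermatocytes and was called higher in spermatids than spermatocytes in knockout (log2 0.38, adjusted p = 0.0264 from limma), at signals of 10.9 to 16.6 over the 4 knockout arrays. Of the p53 genes, Mdm2 was 2.36-fold higher in wild type and 1.80-fold higher in knockout spermatids, and Mdm4, with 1269 and 1270 in wild type spermatocytes and 479 and 397 in wild type spermatids, was 2.91-fold and 3.54-fold lower. Trp63 had 48.1 and 42.1 in wild type spermatocytes and 69.4 and 64.8 in wild type spermatids, 1.49-fold higher (adjusted p = 0.00174 from limma), and all 4 of its probe sets were called higher in spermatids in both genotypes. Trp73 was higher in knockout spermatids than knockout spermatocytes (log2 0.45, adjusted p = 0.00736 from limma) and not called in wild type.

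Cdkn1a had 57.4 and 55.7 in wild type spermatocytes and was 1.96-fold higher in wild type spermatids (log2 0.97, adjusted p = 8.49e-05 from limma), and 3.15-fold higher in knockout ones. Perp was 2.78-fold lower in wild type and 1.77-fold lower in knockout spermatids, and the knockout call was lost with equal medians, without knockout spermatocyte replicate 2 and without either knockout spermatid array (log2 -1.10 to -0.29 over the alternatives). Ccng1 was 1.77-fold lower in wild type (adjusted p = 0.00221 from limma). In knockout its main probe set was not called and 1 of its 3 was lower, and it was called lower with cyclic loess and with the mean of its probe sets. Among the inhibitors, Birc2 was 1.64-fold lower in wild type and 2.72-fold lower in knockout spermatids. Birc6 was 1.33-fold higher in wild type (adjusted p = 0.0191 from limma) and 1.34-fold lower in knockout (adjusted p = 0.0136 from limma), and the knockout value changed sign to 0.23 with cyclic loess and 0.11 with equal medians, the wild type value to -0.089 with the mean of its probe sets. Xiap was 1.41-fold lower in wild type (adjusted p = 0.0252 from limma), at signals under 27 on every array, and the call held under 11 of 15 alternatives. Bcl2l11 was 1.44-fold lower in wild type spermatids and had a log2 difference of 0.00 in knockout by its main probe set. Of its 5 probe sets, 3 were called higher and 1 lower in wild type spermatids, and 3 higher and 0 lower in knockout ones. With their mean the knockout difference was 0.89 (adjusted p = 1.84e-05 from limma).

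**Figure D3:**
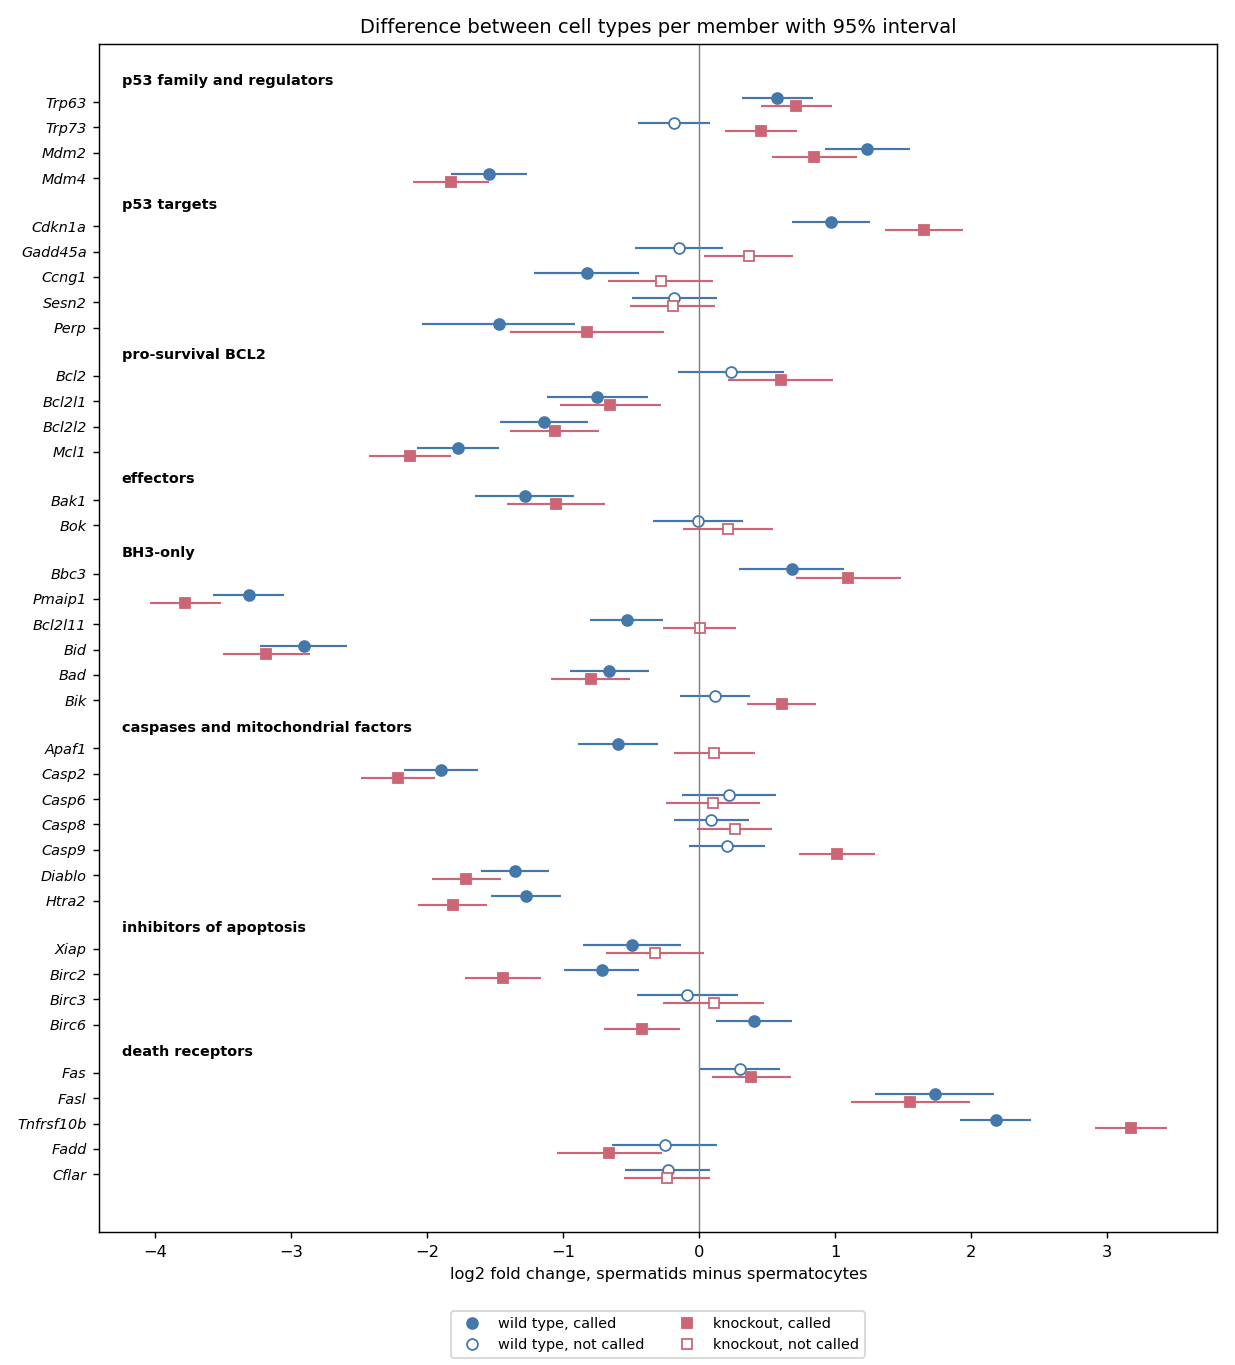
Log2 fold change, spermatids minus spermatocytes, of each of the 37 genes in wild type (circles) and knockout (squares) cells, grouped by role, with 95% intervals from limma and filled symbols for genes called. Pmaip1 and Bid lie furthest to the left in both genotypes and Tnfrsf10b furthest to the right, at 2.18 and 3.17, and Birc6 is called in opposite directions.

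For 8 of the genes with several probe sets, probe sets of 1 gene were called in opposite directions between the cell types, 6 in wild type (Bcl2l11, Birc6, Cflar, Mcl1, Mdm2 and Mdm4) and 7 in knockout (Bak1, Birc6, Casp9, Cflar, Mcl1, Mdm2 and Mdm4). Of 6 Mcl1 probe sets, 5 were lower in wild type spermatids, with log2 differences of -1.77 to -3.01, and 1 was higher, with means of 754 and 1555 (log2 1.04, adjusted p = 1.3e-05 from limma). The main Mdm2 probe set was higher in spermatids, and another fell from 3063 to 1793 in wild type (log2 -0.77, adjusted p = 0.00013 from limma). For Mdm4, 3 of 4 probe sets were higher in wild type spermatids, such as one at 337 in spermatocytes and 1248 in spermatids (log2 1.88, adjusted p = 2.58e-06 from limma), against the fall of the main one. A Casp9 probe set fell from 240 to 34.2 in wild type (log2 -2.83, adjusted p = 9.89e-08 from limma), and a Bcl2l11 probe set rose from 19.8 to 122 (log2 2.62, adjusted p = 1.53e-07 from limma). Probe sets of 1 gene can read different transcript forms, which these arrays do not resolve, so the stage direction of these 8 genes holds for the probe set named. No gene had probe sets called in opposite directions between genotypes.

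**Figure D4:**
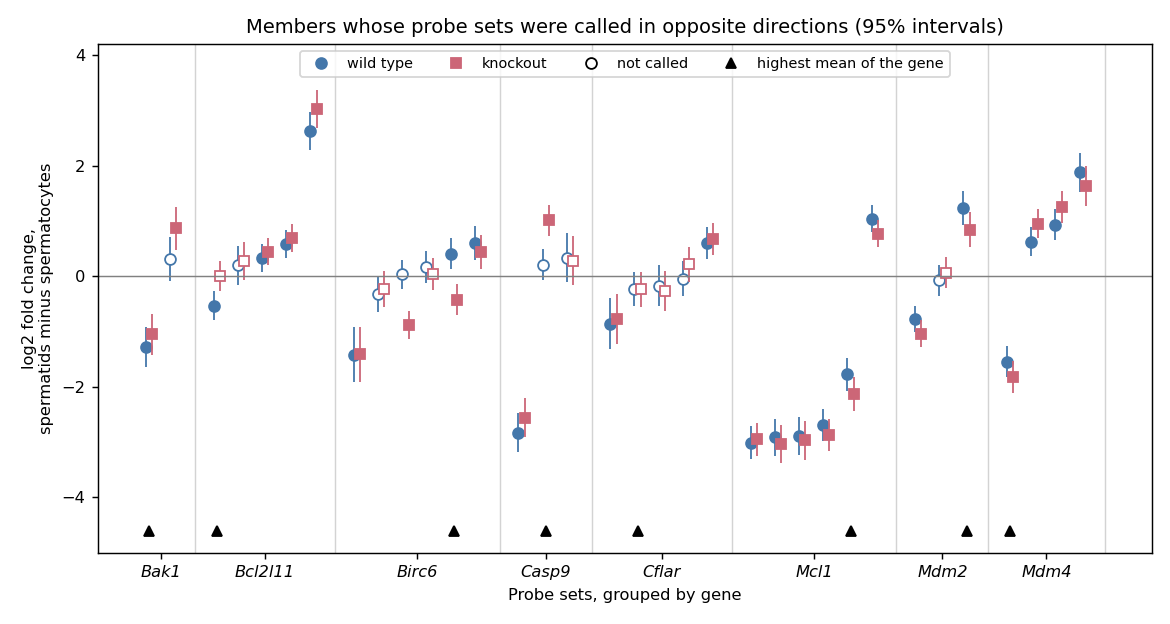
Log2 fold change, spermatids minus spermatocytes, of every probe set of the 8 genes whose probe sets were called in opposite directions, in wild type (circles) and knockout (squares), with 95% intervals from limma, filled symbols for calls and a triangle under the probe set with the highest mean. For Mcl1, 5 of 6 probe sets lie below zero in both genotypes, and for Mdm4, 3 of 4 lie above zero.

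A further 46 genes of the same pathways were measured. In knockout spermatocytes 1 of the 46 rose and none fell (all genes, 2.22% and 0.511%). It was Bcl2l14, a BCL2 relative, with a mean signal of 158 in wild type and 309 in knockout (log2 0.99, adjusted p = 0.0233 from limma). Its mean was 5936 in wild type spermatids. Whether the higher spermatid marker signal on the knockout spermatocyte arrays had a part in its rise was not tested. In knockout spermatids 4 rose and 4 fell (all genes, 6.93% and 12.9%). Btg2, a p53 target that restrains proliferation, rose from 169 to 394 (log2 1.23, adjusted p = 0.00106 from limma). Xpc, which recognises DNA lesions for excision repair, rose by a log2 fold change of 0.95 (adjusted p = 0.01), Casp1, the inflammasome caspase, by 0.67 (adjusted p = 0.00709) and Rchy1, a ubiquitin ligase for p53, by 0.38 (adjusted p = 0.0426 from limma). Sesn3 had a log2 fold change of -0.61, Ei24 of -0.55, Cradd of -0.53 and Plk2 of -0.44, with adjusted p-values of 0.0361, 0.0467, 0.0141 and 0.0469 from limma. Between the cell types, 8 of the 46 were higher and 21 lower in wild type spermatids, and 10 and 21 in knockout ones, against 33.7% and 29.4% of all genes in wild type and 41.6% and 31.1% in knockout.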

How the data were processed

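RNA of 4 groups was hybridised to Affymetrix mouse genome arrays, 2 per group, 8 in all. The authors background-corrected, normalized and summarised the probes with RMA, and the deposited values are on the log2 scale. Versions are not given in the sources used here. Of 45101 probe sets, 64 controls were left out, and of the 45037 tested 34945 were annotated to 1 gene, 932 to several and 9160 to none. A signal of at least 100 was reached by 33.2% to 35.4% of probe sets per array, and r between replicates was 0.995 to 0.997, taken over all probe sets of an array.

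Means of the 4 groups were fitted to all arrays with limma 3.58.1 in R 4.3.3 (4 residual and 5.85 prior degrees of freedom), and 5 contrasts were tested with Benjamini-Hochberg adjustment over all probe sets tested, with calls at an adjusted p under 0.05. The procedure was tested on simulated data. The number of arrays limits the precision. The alternatives were cyclic loess, equal medians of expressed probe sets, a signal filter (100 or more on at least 4 arrays, passed by 18 of the 37 genes), the mean of a gene's probe sets, an intensity trend, a replicate block, the compared groups fitted alone, and leaving out each array. Every gene of the set is named, those called between genotypes with full values, and those with the largest stage differences, up to 10 per direction. The genes and lists were chosen with earlier results of these data known.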

Additional observations from a re-analysis of the deposited data

Results flagged for a closer look

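Birc2, Birc6, Casp9 and Tnfrsf10b were singled out because the knockout effect in spermatids differed from that in spermatocytes by limma's interaction test. The difference was 0.81 on the log2 scale for Casp9, -0.73 for Birc2, -0.83 for Birc6 and 1.00 for Tnfrsf10b. Over 14 alternatives the call of Tnfrsf10b held in 10, and those of the other 3 genes in 4 each. With 2 arrays per group no array could be tested for standing apart from its group.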

How the results depend on the processing

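In knockout spermatocytes the count of 2 fell to 1 (Pmaip1) with the mean of a gene's probe sets or with the 4 spermatocyte arrays fitted alone, and was 1 to 2 when an array was left out. In knockout spermatids the count of 9 ranged from 7 to 11 over the settings that left out no array of the groups compared, and from 2 to 11 when an array was left out. The interaction count of 4 was 2 with cyclic loess and ranged from 0 to 3 when an array was left out. In the limma fit of all arrays, 9 of the 33 genes not called for the interaction had an unadjusted p under 0.05. The stage counts of 24 in wild type and 26 in knockout were 14 and 16 with the signal filter, which 18 of the 37 genes entered, and 22 to 24 and 21 to 27 when an array was left out. With the mean of a gene's probe sets the wild type stage difference became 0.47 for Mdm4, 0.64 for Bcl2l11 and -0.089 for Birc6, and the knockout one -0.042 for Mdm2, 0.50 for Mdm4 and -0.42 for Casp9, since their probe sets differ in direction. The knockout stage difference of Birc6 became 0.23 with cyclic loess and 0.11 with equal medians. No called genotype effect or interaction changed sign under any alternative.

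The replicate numbers are shared between groups, but no source says that they pair the samples, and the replicate differences correlated at 0.031 between genotypes in spermatocytes and -0.10 in spermatids. With the replicate number as a block, 2 genes were called in spermatocytes, 8 in spermatids, 2 in the interaction (Birc6 and Tnfrsf10b, against 4 without the block), and 24 and 26 between stages. Crossing the numbers of the wild type spermatids, a setting chosen after seeing the data, left 9 calls in spermatids and 24 between stages in wild type.

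The 17 genes under a signal of 100 in all groups were measured with little signal over background, and the number of arrays limits the precision.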
